A study of Mus musculus with 16 samples.

Results

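The genes described here are 27 genes of the mouse synapse, taken as a fixed list of symbols, and all 27 were found among 21887 protein-coding genes that RefSeq lists on GRCm38. They were sorted by role into 8 receptors and channels (Gria1, Gria2, Grin1, Grin2a, Grin2b, Cacna1a, Scn1a, Scn2a), 6 postsynaptic scaffolds (Shank1, Shank2, Shank3, Dlg4, Dlgap1, Homer1), 6 adhesion genes (Nrxn2, Nrxn3, Nlgn1, Nlgn2, Nlgn3, Cntnap2), 6 presynaptic genes (Syn1, Snap25, Syt1, Stx1a, Bsn, Pclo) and the kinase gene Camk2a. No measured value was used to choose them, although earlier results of these libraries were known when the list was drawn up. Chromatin immunoprecipitation with sequencing (ChIP-seq) was carried out on neural stem cells, grown as neurospheres from the embryonic cortex at E14.5 and plated on Matrigel before fixation in 1% formaldehyde. Cells were Setd5+/-, that is, heterozygous at Setd5 with an allele the labels do not describe, or wild type, and further cells labelled wild type carried SETD5 with a V5 tag. The series title describes SETD5 as an enzyme that methylates lysine 36 of histone H3, and the comparison asks how the marks differ when its dose is reduced. For each of 6 histone marks there was 1 Setd5+/- library and 1 wild-type library, and the V5 tag had 1 library with no untagged counterpart. How many embryos or cultures stand behind a library is not given in the sources used here.

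Each library is a list of islands, stretches of the genome in which reads were enriched, with the number of reads in each island. With 1 library per group the differences below have no replicate check, and no test between genotypes was possible. Reads in islands ranged from 1019278 to 5093126 per library over the 13 lists, and the depth outside islands is unknown, so a missing island means that no enrichment was called there. Covered length in Setd5+/- relative to wild type had an autosome median of 0.6 for H3K36me2, 0.614 for H3K4me1, 0.798 for H3K27me3, 0.95 for H3K27ac, 0.979 for H3K36me3 and 1.04 for H3K4me3. Chromosomes 1, 4 and 15 lay above those medians for every mark. Markers of neural stem cells and radial glia carried H3K4me3 with H3K27ac at 10 of 12 promoters in each genotype, and neuron markers did so at 3 of 10 in each. Astrocyte markers did so at 1 of 5 in each genotype, oligodendrocyte markers at 1 of 5 in Setd5+/- and 0 of 5 in wild type, and microglia, blood, endothelial and mesenchymal markers at none. Setd5 itself had 73.3% of its span under H3K36me3 in Setd5+/- cells and 98.5% in wild-type cells.

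Synapse genes encode the machinery by which neurons signal to each other: vesicle proteins that release transmitter, receptors and channels that answer it, scaffolds that hold the receptors in place and adhesion proteins that hold both sides together. Neural stem cells divide and have not yet formed synapses, so these genes belong to a later stage of the lineage. H3K4me3 marks promoters that are open to transcription, H3K27ac marks active promoters and enhancers, and H3K4me1 marks enhancers and promoter flanks. H3K27me3 is laid down by the Polycomb complex PRC2 and goes with repression. A promoter that carries H3K4me3 together with H3K27me3 is called bivalent, a state known from developmental genes in stem cells. H3K36me3 follows RNA polymerase II over transcribed gene bodies, and H3K36me2 forms broader domains.

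Several members have more than 1 promoter, and CpG content differed between those that were marked and those that were not. RefSeq promoter sequences were matched for 17 of the 27 genes, with 27 starts, each running from 250 bases before the start to 50 bases into the transcript. CpG-rich promoters are known to carry H3K4me3 in many cell types. The 19 starts with H3K4me3 in wild type held a median of 16 CpG and the 8 starts without it a median of 6. Over all 21263 RefSeq starts the medians were 21 with H3K4me3 and 3 without. Scn2a and Nrxn3 show the contrast within a gene, Scn1a and Dlgap1 are the annotated starts whose H3K4me3 and H3K27me3 calls differed between genotypes, and Pclo is a CpG-rich bivalent start. The 250 bases before each start are printed 5′ to 3′ on the strand of the gene, from RefSeq on GRCm38, with CpG in capitals.
Scn2a start 1, unmarked, chr2:65620519-65620768, plus strand: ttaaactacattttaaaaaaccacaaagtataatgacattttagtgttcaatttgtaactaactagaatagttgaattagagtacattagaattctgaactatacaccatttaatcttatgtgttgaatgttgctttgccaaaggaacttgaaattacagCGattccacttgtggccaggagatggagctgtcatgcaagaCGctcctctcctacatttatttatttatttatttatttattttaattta
Scn2a start 2, marked, chr2:65668436-65668685, plus strand: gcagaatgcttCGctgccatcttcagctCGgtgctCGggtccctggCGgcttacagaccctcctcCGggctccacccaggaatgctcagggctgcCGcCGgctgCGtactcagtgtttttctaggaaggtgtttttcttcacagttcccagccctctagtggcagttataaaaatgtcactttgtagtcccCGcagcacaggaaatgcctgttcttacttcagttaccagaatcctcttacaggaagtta
Nrxn3 start 1, unmarked, chr12:88794254-88794503, plus strand: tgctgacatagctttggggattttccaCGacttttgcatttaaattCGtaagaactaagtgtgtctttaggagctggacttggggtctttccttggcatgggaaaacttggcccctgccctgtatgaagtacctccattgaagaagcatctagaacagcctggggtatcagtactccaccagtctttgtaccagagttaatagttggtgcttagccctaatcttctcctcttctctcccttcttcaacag
Nrxn3 start 3, marked, chr12:89812233-89812482, plus strand: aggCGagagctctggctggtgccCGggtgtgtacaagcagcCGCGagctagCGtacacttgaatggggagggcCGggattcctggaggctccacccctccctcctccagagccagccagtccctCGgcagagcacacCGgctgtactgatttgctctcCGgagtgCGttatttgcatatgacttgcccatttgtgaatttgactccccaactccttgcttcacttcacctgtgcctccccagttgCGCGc
Scn1a, marked in wild type, chr2:66440838-66441087, minus strand: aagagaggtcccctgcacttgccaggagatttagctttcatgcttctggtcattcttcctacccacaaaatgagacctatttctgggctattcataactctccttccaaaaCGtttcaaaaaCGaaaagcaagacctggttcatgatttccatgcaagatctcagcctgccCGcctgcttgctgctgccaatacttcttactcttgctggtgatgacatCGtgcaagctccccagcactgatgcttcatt
Dlgap1 start 1, marked in wild type, chr17:69968823-69969072, plus strand: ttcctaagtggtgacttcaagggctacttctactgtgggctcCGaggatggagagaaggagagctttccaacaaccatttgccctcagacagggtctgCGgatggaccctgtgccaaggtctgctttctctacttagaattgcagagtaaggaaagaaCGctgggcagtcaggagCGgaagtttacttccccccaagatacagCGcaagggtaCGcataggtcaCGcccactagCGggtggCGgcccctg
Pclo, marked in both genotypes, chr5:14514668-14514917, plus strand: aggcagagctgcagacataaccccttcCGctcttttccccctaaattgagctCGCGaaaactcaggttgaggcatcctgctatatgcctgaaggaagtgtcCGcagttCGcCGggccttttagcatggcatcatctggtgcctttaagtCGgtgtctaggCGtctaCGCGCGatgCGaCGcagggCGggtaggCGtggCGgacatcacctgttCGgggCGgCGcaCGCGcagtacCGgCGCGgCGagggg
In these 250 bases the unmarked starts of Scn2a and Nrxn3 held 2 CpG each, against 9 and 12 in their marked starts. The Scn1a stretch held 4 CpG, the Dlgap1 stretch 9 and the Pclo stretch 25. The GC box GGGCGG, searched on both strands of the 300 bases, was found at 9 of the 27 member starts and at 46.2% of all starts, and the TATA box TATAAA at 1 member start, the marked start of Scn2a, and at 12.6% of all starts. The left part of the motif of the neuronal repressor REST, CAGCACC, was found at 3 starts, those of Syn1, Nlgn1 and Dlg4, and at 7.24% of all starts. Its right part, GGACAGC, was found at 1 start, that of Gria2, and at 6.88% of all starts.

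At the promoter, nearly all members carried H3K4me3, few carried H3K27ac and a small group was bivalent. H3K4me3 was present at 23 of 27 promoters in Setd5+/- cells and 26 of 27 in wild-type cells, against 58.6% and 60.2% of all protein-coding genes. H3K27ac was present at 6 and 8 of 27, against 35.9% and 37.9% of all genes, and H3K4me1 at 5 and 10 of 27, against 16.6% and 34.8%. H3K27me3 lay at 5 of 27 promoters in each genotype, against 6.18% of all genes in Setd5+/- and 7.94% in wild type. SETD5-V5 lay at none of the 27, against 4.97% of all genes. A promoter here is 1 kb to each side of an annotated start or, for the 10 members for which no start was matched, of both annotated ends, and it counts as marked when an island overlaps it by 1 bp or more. In these cell populations, fewer cells with a mark and less of the mark per cell cannot be told apart.

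**Figure D1:**
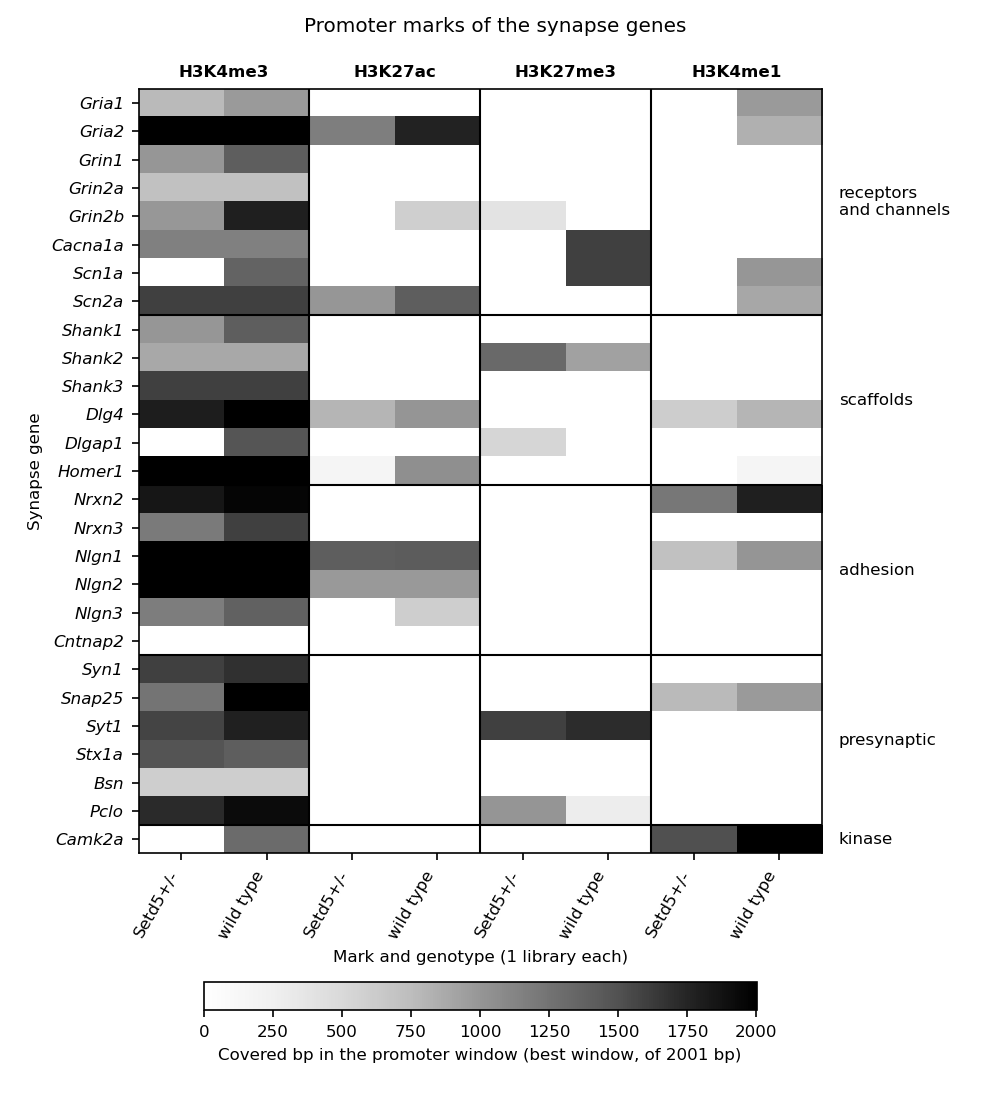
Covered length in base pairs of the promoter window (the window with most coverage) for each synapse gene in rows, by mark and genotype in columns with 1 library each, white being 0. The H3K4me3 columns are filled for 23 members in Setd5+/- and 26 in wild type, while the H3K27ac columns are empty for all 6 presynaptic genes.

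The most frequent state was H3K4me3 without H3K27ac or H3K27me3. It held 13 of 27 members in Setd5+/- and 13 in wild type, which is 48.1% of the members, against 20.6% of all genes in Setd5+/- and 18.7% in wild type. H3K4me3 with H3K27ac and no H3K27me3 held 6 members in Setd5+/- and 8 in wild type (all genes, 35.1% and 36.9%). H3K4me3 with H3K27me3 held 4 members in Setd5+/- and 5 in wild type (all genes, 3.0% and 4.65%). None of the 3 marks lay at the promoters of Scn1a, Camk2a and Cntnap2 in Setd5+/- cells, and in wild-type cells that held for Cntnap2 alone. Dlgap1 carried H3K27me3 without H3K4me3 in Setd5+/- cells.

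**Figure D2:**
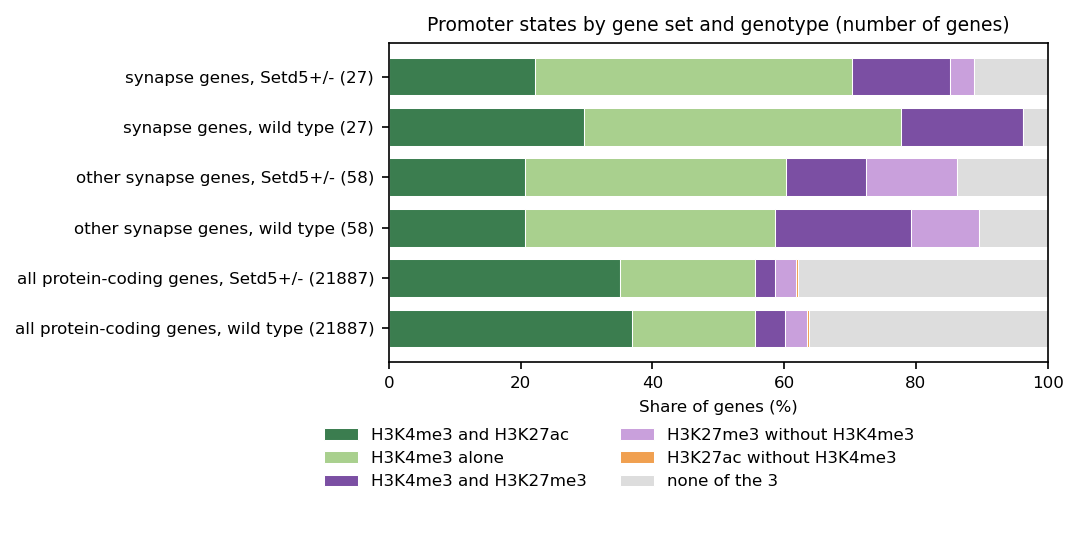
Share of genes in percent (x axis) in each promoter state for the 27 synapse genes, 58 other synapse genes and all 21887 protein-coding genes, with the Setd5+/- library above the wild-type library in each pair. H3K4me3 alone (light green) holds 48.1% of the synapse genes in either genotype and 20.6% (Setd5+/-) or 18.7% (wild type) of all genes.

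H3K27ac lay at 2 of 8 receptor and channel promoters in Setd5+/- and 3 of 8 in wild type. In this class the AMPA receptor gene Gria2 had the most H3K4me3 reads. Its H3K4me3 island held 851 reads over 5.0 kb in Setd5+/- cells and 1051 reads over 6.2 kb in wild-type cells, and its H3K27ac island held 80 reads in Setd5+/- and 133 in wild type. Gria1, which encodes another AMPA receptor subunit, had 34 H3K4me3 reads (exact Poisson 95% interval 23.6 to 47.5) in Setd5+/- and 102 (83.2 to 124) in wild type. It had no H3K27ac in either genotype. Such intervals cover counting error only, and they are too narrow where reads are PCR copies, which are not independent molecules. They leave out differences in island calling and in the read totals of the lists. The sodium channel gene Scn2a carried H3K4me3 at its inner start, with 196 reads in Setd5+/- and 202 in wild type, and H3K27ac there, with 26 and 33 reads.

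The NMDA receptor subunit genes differed from each other. Grin1, the obligatory subunit, had a narrow H3K4me3 island of 41 reads in Setd5+/- and 52 reads in wild type. Grin2a, prominent in the adult brain, had 226 reads (197.5 to 257.5) in Setd5+/- and 132 reads (110.4 to 156.5) in wild type. It was the only member whose H3K4me3 reads were higher in Setd5+/- with intervals apart. Grin2b, the subunit of the embryonic brain, differed in several marks at its upper annotated end. Its H3K4me3 island there held 98 reads (79.6 to 119) over 1.6 kb in Setd5+/- cells and 239 reads (209.7 to 271) over 3.0 kb in wild-type cells. No H3K27ac island lay at this end in Setd5+/-, where the nearest was 148.6 kb from the window, and 1 of 29 reads lay there in wild type.

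In Setd5+/- cells the same end of Grin2b carried 5 H3K27me3 islands, with 497 reads over 14.0 kb in all. The widest, chr6:136165801-136173000, held 253 reads over 7.2 kb, at 1.41 times the median read density of its list, and its neighbour held 120 reads over 2.2 kb at 2.18 times. Wild-type cells had no H3K27me3 island there, and the nearest was 655.8 kb from the window. H3K27me3 on chromosome 6, which holds Grin2b, covered 0.824 times the wild-type length in Setd5+/-. The upper end of Grin2b also lies within the long noncoding RNA gene Gm26653, so reads at this end cannot be assigned to either gene alone. Within the gene, H3K27ac covered 2.2 kb in 1 island in Setd5+/- and 8.4 kb in 4 islands in wild type. H3K4me1 covered 9.8 kb in 5 islands in Setd5+/- and 19.6 kb in 9 islands in wild type.

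**Figure D3:**
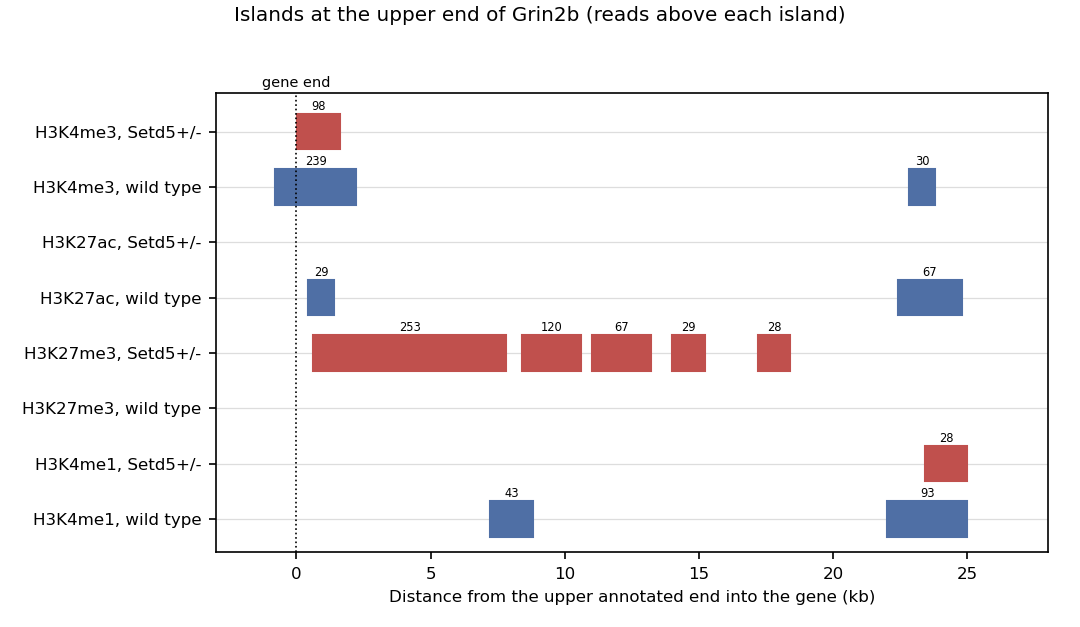
Islands at the upper annotated end of Grin2b, by distance into the gene in kb (x axis, dotted line at the end), for 4 marks with the Setd5+/- library (red) above the wild-type library (blue) and the reads of each island above it. The 5 H3K27me3 islands of 28 to 253 reads are in the Setd5+/- library, and the H3K27ac islands of 29 and 67 reads are in the wild-type library.

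Scn1a, a sodium channel gene prominent in inhibitory neurons, had a bare start in Setd5+/- and a bivalent one in wild type. In Setd5+/- cells no H3K4me3, H3K27me3 or H3K4me1 island touched the start, the nearest H3K4me3 island being 29.4 kb and the nearest H3K27me3 island 34.8 kb from the window. In wild-type cells the start held 81 H3K4me3 reads, 92 H3K27me3 reads in 2 islands and 32 H3K4me1 reads. The noncoding gene Gm13629 lies 43 bp beyond this start. The wild-type islands run into it or lie over it, so these marks cannot be assigned to either gene alone. Further inside Scn1a the order was the other way round. H3K27me3 lay there in 6 islands of 22 to 299 reads in Setd5+/- and 3 islands of 39 to 50 reads in wild type. The widest of these, chr2:66284001-66293800, held 299 reads over 9.8 kb in Setd5+/-, and the 3 wild-type islands lay within its bounds. Cacna1a, a presynaptic calcium channel gene, had no H3K27me3 island at its lower end in Setd5+/- (nearest, 18.8 kb from the window) and 1 of 40 reads there in wild type. Its H3K4me3 lay at both ends, with 174 reads in Setd5+/- and 163 in wild type.

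Of the scaffold promoters, those of Dlg4 and Homer1 carried H3K27ac and those of the Shank genes and Dlgap1 did not. Homer1, which links receptors to the Shank proteins, had 769 H3K4me3 reads in Setd5+/- and 833 in wild type. Its H3K27ac islands in the promoter window, of 39 reads in Setd5+/- and 41 in wild type, did not cover the same bases. The Setd5+/- island began 844 bp after the gene start and the wild-type island ended 43 bp after it. A second wild-type island of 39 reads, 1844 to 3243 bp after the start and outside the windows, overlapped the Setd5+/- island. With an overlap of at least 200 bp required, the Setd5+/- island was not counted, and 5 members carried H3K27ac in Setd5+/-. Dlg4, which encodes PSD-95, had 190 H3K4me3 reads in each genotype. Its H3K27ac island at the second start held 30 reads in Setd5+/- and 33 in wild type, and over the gene and its flanks H3K27ac summed to 171 reads in Setd5+/- and 159 in wild type. Shank3, a master scaffold of excitatory synapses, had 200 H3K4me3 reads in Setd5+/- and 181 in wild type with no H3K27ac or H3K27me3. It lies on chromosome 15, where H3K4me3 covered 1.21 times the wild-type length in Setd5+/-.

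Shank2 was bivalent in both genotypes. It had 36 H3K4me3 and 54 H3K27me3 reads in Setd5+/-, and 47 H3K4me3 and 140 H3K27me3 reads in wild type. The H3K4me3 island counted for Shank1, of 150 reads in Setd5+/- and 153 in wild type, lies at its upper end, which overlaps the gene 1700008O03Rik, so the mark cannot be assigned to either. Dlgap1, which links PSD-95 to the Shank proteins, had no H3K4me3 island at its outer start in Setd5+/-, the nearest being 459.5 kb from the window, and an island of 107 reads there in wild type. It had an H3K27me3 island of 48 reads just before this start in Setd5+/-, while a wild-type island of 57 reads lay just after it, 0.328 kb outside the window. With annotated ends in place of starts for all genes, the difference in Dlgap1 H3K27me3 turned to 60 bp less cover in Setd5+/- (−60), where a wild-type island of 67 reads lay at the other end of the gene. Inside Dlgap1, away from its starts, H3K27ac lay in 4 islands with 150 reads in Setd5+/- and in 1 island with 36 reads in wild type.

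H3K4me3 lay at 5 of 6 adhesion gene promoters in each genotype, and H3K27me3 at none of the 6, against 6.18% of all genes in Setd5+/- and 7.94% in wild type. Nlgn1, a neuroligin of excitatory synapses, had H3K4me3 and H3K27ac at both annotated starts, with 1062 H3K4me3 reads (999 to 1128) in Setd5+/- and 1407 (1334 to 1482) in wild type. Its H3K27ac reads numbered 68 in Setd5+/- and 179 in wild type. The upper end of Nlgn1 overlaps the noncoding gene A830092H15Rik, so reads at the outer start cannot be assigned to either gene alone. Nlgn2, the neuroligin of inhibitory synapses, had 446 H3K4me3 reads in Setd5+/- and 430 in wild type, and 39 and 44 H3K27ac reads. Its start lies 741 bp from the gene Tmem256, and its H3K4me3 islands run into both genes, while its H3K27ac islands begin just beyond Nlgn2 and run over Tmem256. Nlgn3 had 226 H3K4me3 reads in Setd5+/- and 247 in wild type, and no H3K27ac island in Setd5+/- against a small one of 22 reads in wild type. That end lies close to the end of the gene Med12.

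Nrxn2, a neurexin gene, had 80 H3K4me3 reads (63.4 to 99.6) in Setd5+/- and 133 (111 to 158) in wild type at its lower end, which overlaps the noncoding gene Gm14965. Nrxn3 was marked at its innermost start, with 66 reads of H3K4me3 in Setd5+/- and 79 in wild type. A further island at the lower end of the Nrxn3 span, outside the windows of its annotated starts, held 60 reads in Setd5+/- and 131 in wild type. Cntnap2 was the only member with no mark at its annotated starts in either genotype. Its widest H3K4me3 island began 2114740 bp (Setd5+/-) and 2114940 bp (wild type) into its span of 2241.3 kb, with 117 and 93 reads.

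All 6 presynaptic promoters carried H3K4me3 and none carried H3K27ac, in Setd5+/- and wild type alike. Snap25, a SNARE protein of vesicle fusion, had 126 H3K4me3 reads (105 to 150) over 1.6 kb in Setd5+/- and 290 reads (258 to 325) over 3.0 kb in wild type, at an end that overlaps the noncoding gene Gm32659. Stx1a, its partner syntaxin, had 165 reads in Setd5+/- and 164 in wild type, and Syn1, a synapsin that tethers vesicles, had 81 and 75. Bsn, a scaffold of the active zone, had the smallest island of the class, with 26 reads in Setd5+/- and 27 in wild type. These islands did not cover the same bases, lying at chr9:108190401-108191000 in Setd5+/- and chr9:108189601-108190200 in wild type. Syt1, the calcium sensor of release, and Pclo, another active zone scaffold, were bivalent in both genotypes.

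For Syt1 the promoter held 202 H3K4me3 and 74 H3K27me3 reads in Setd5+/-, and 217 H3K4me3 and 57 H3K27me3 reads in wild type. For Pclo it held 153 H3K4me3 reads (129.7 to 179) in Setd5+/- and 292 (259.5 to 327.5) in wild type, and 188 H3K27me3 reads (162 to 217) in Setd5+/- and 68 (52.8 to 86.2) in wild type. Pclo had fewer H3K4me3 reads and more H3K27me3 reads in the Setd5+/- libraries, with counting intervals apart for both marks. The H3K27me3 reads lay over 7.4 kb in Setd5+/- and 2.6 kb in wild type. Camk2a, the calcium-dependent kinase of the postsynaptic density, had no H3K4me3 island in Setd5+/- and a weak one of 34 reads in wild type, at 0.271 times the median density of its list. H3K4me1 lay at the same end with 45 reads in Setd5+/- and 89 in wild type.

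Promoter calls present in 1 genotype only were mostly wild-type calls over all genes for every mark, and among the members except for H3K27me3. H3K4me3 was called in Setd5+/- only for 0 of 27 members, against 0.717% of all genes, and in wild type only for 3 (Scn1a, Dlgap1, Camk2a), against 2.28%. H3K27ac was called in Setd5+/- only for 0, against 4.1% of all genes, and in wild type only for Grin2b and Nlgn3, against 6.16%. H3K4me1 was called in Setd5+/- only for 0, against 3.13% of all genes, and in wild type only for 5 members (Gria1, Gria2, Scn1a, Scn2a, Homer1), which is 18.5% of the members against 21.4% of all genes. H3K27me3 went both ways, with Grin2b and Dlgap1 called in Setd5+/- only (1.55% of all genes) and Cacna1a and Scn1a in wild type only (3.31% of all genes). The Camk2a H3K4me3 island and the Dlgap1 H3K27me3 island were no longer called when the islands in the lowest 25.0% of read density were left out of each list.

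Among the promoters marked by H3K4me3 in both genotypes, most members had fewer reads in Setd5+/-, and most genes had more. Reads were fewer in Setd5+/- at 16 of 23 such members and more at 6, whereas over the 12673 such genes they were fewer at 34.5% and more at 64.5%. The counting intervals lay apart, with fewer reads in Setd5+/-, at 7 members (Gria1, Gria2, Grin2b, Nrxn2, Nlgn1, Snap25, Pclo), against 4.6% of all such genes, and with more reads at 1 (Grin2a), against 15.4%. The median ratio of reads in Setd5+/- to wild type was 0.923 for the members, 1.02 for 42 other synapse genes and 1.05 for all genes. The H3K4me3 list held 5093126 reads in Setd5+/- and 4657391 in wild type. Relative to those totals, 21 of 23 members and 61.0% of all such genes had fewer in Setd5+/-. The comparison of reads was chosen after other values of these libraries were seen.

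Member H3K4me3 islands had a lower median width and read density than those of all genes. The widest promoter island had a median width of 1.6 kb in Setd5+/- and 2.0 kb in wild type, against 2.4 kb for all marked genes in either genotype. Its median density was 78.8 reads per kb in Setd5+/- and 75.02 in wild type, against 129 and 122 (Setd5+/- and wild type) for all marked genes. Gria2, Grin2a, Homer1, Nlgn1, Nlgn2 and Nlgn3 stood above that median width in both genotypes.

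At bivalent members the overlap of the H3K27me3 and H3K4me3 islands ranged from none to the whole of the H3K4me3 island. Within the promoter window the overlap in Setd5+/- was 386 bp at Grin2b, 200 bp at Shank2, 718 bp at Pclo and 0 bp at Syt1. In wild type it was 200 bp at Syt1, 200 bp at Pclo, 0 bp at Shank2, 600 bp at Cacna1a and 1364 bp at Scn1a, where the H3K4me3 island lay wholly within the H3K27me3 island. Over all bivalent genes the islands overlapped at 76.7% in Setd5+/- and 82.3% in wild type, with medians of 480 bp and 600 bp where they did. Overlapping islands in a population of cells do not show that the same nucleosomes or cells carry both marks.

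Over the gene spans, H3K36me3 was scarce. Its mean coverage of the 27 spans was 5.12% in Setd5+/- and 5.92% in wild type, against 26.4% and 26.0% for all genes of at least 5 kb. At least 25% of the span was covered at 3 members in either genotype, Gria2, Dlg4 and Homer1, against 36.8% of all genes in Setd5+/- and 35.2% in wild type. The members are long, with a median span of 122.8 kb against 17.2 kb for all genes. Among genes of at least 50 kb the means over all genes were 22.3% in Setd5+/- and 20.9% in wild type, and over 22 members 4.1% and 4.95%. Coverage was 0 in both genotypes at 22 of the 27 members, including all 6 presynaptic genes.

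**Figure D4:**
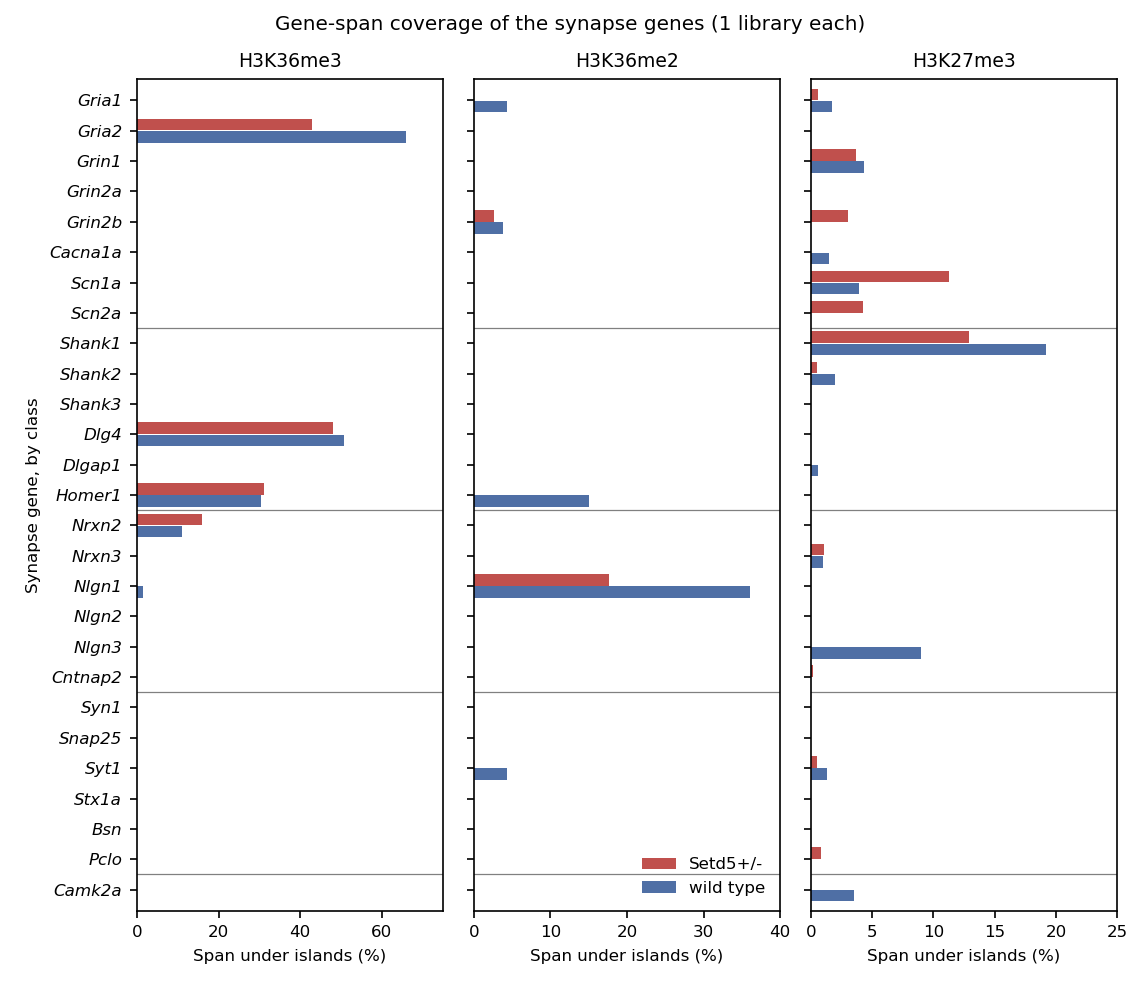
Percent of each synapse gene's span under islands (x axes, scaled per panel) for H3K36me3, H3K36me2 and H3K27me3, with the Setd5+/- library (red) above the wild-type library (blue). H3K36me3 reaches 25% at Gria2, Dlg4 and Homer1, H3K36me2 at Nlgn1 in wild type only, and H3K27me3 at no member.

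Gria2 was the only member whose H3K36me3 coverage differed by 10 percentage points or more. It was covered over 43.0% in Setd5+/- and 65.9% in wild type, by 5 islands with 790 reads and by 3 islands with 939 reads. Coverage was lower in Setd5+/- by at least 10 percentage points at 12.0% of all genes, and higher by as much at 11.8% of all genes and 0 members. Coverage in Setd5+/- was broken into smaller islands between 62627 and 106626 bp from the upper end, where a single wild-type island of 44.8 kb with 536 reads lay. SETD5-V5 covered 49.6% of Gria2 in 3 islands with 1007 reads, the highest coverage of any member, against a mean of 14.6% over all genes.

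**Figure D5:**
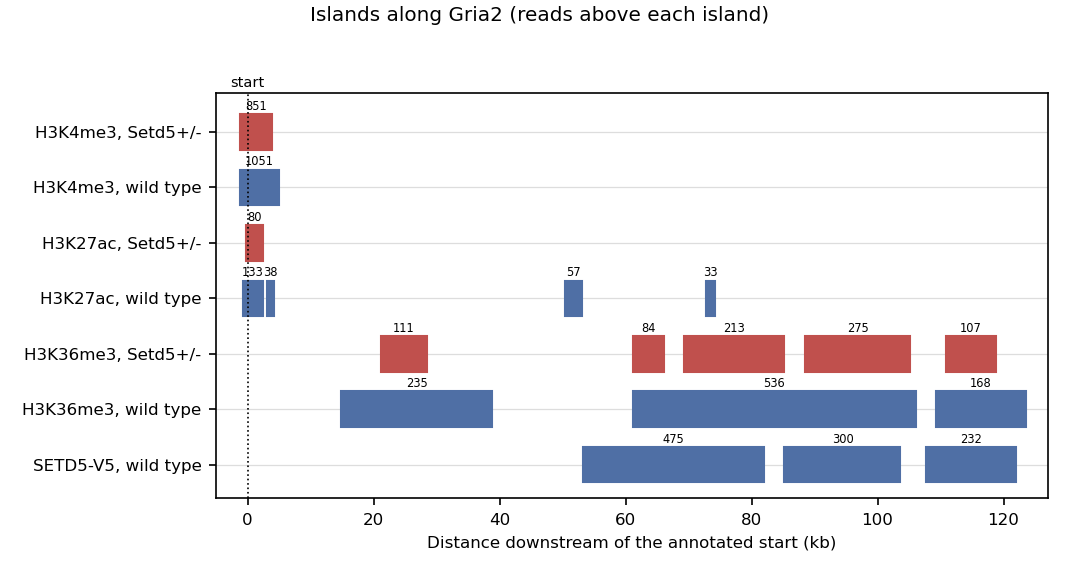
Islands along Gria2 by distance downstream of its annotated start in kb (x axis, dotted line at the start), with the Setd5+/- library (red) above the wild-type library (blue), the V5 library at the bottom and the reads of each island above it. H3K36me3 lies in 5 Setd5+/- islands of 84 to 275 reads and in 3 wild-type islands of 168 to 536 reads, and the 3 SETD5-V5 islands lie in the later part of the gene.

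Dlg4 had 48.0% of its span under H3K36me3 in Setd5+/- and 50.8% in wild type, and Homer1 had 31.1% and 30.3%. Nrxn2 had 16.1% in Setd5+/- and 11.2% in wild type, and Nlgn1 had 0% and 1.49%. With the islands of lowest density left out, Gria2 had 23.5% in Setd5+/- and 46.4% in wild type, and Dlg4 had 48.0% and 0%. SETD5-V5 covered 22.6% of Dlg4 and 12.2% of Homer1 and none of the span of the other 24 members, so its mean over the members was 3.13%.

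H3K36me2 lay chiefly over Nlgn1 and was lower there in Setd5+/-. Nlgn1 was covered over 17.65% of its span in Setd5+/- and over 36% in wild type. With its 5 kb flanks it held 9 islands with 2939 reads in Setd5+/- and 19 islands with 5174 reads in wild type. A wild-type island of 131 reads among these lay in the flank. Homer1 had no H3K36me2 in Setd5+/- and 15.0% in wild type, in 1 island of 217 reads. Coverage lower in Setd5+/- by at least 10 percentage points was found at 2.46% of all genes, and coverage higher by as much at 4.49% of all genes and 0 members. With the islands of lowest density left out, Nlgn1 was covered over 12.0% in Setd5+/- and 22.3% in wild type, and Homer1 over 0% in both. With the lists cut to equal covered length, the Nlgn1 difference (Setd5+/- minus wild type) was −34.3 percentage points. For H3K36me2 this cut took islands from the Setd5+/- list only, whose total cover was 1.755 times that of wild type. It could therefore only lower Setd5+/- coverage, and the larger difference is no separate evidence. The covered length of H3K36me2 in Setd5+/- was 0.519 times that in wild type on chromosome 3, which holds Nlgn1, and 1.06 times on chromosome 13, which holds Homer1. Small amounts lay over Grin2b, with 2.61% in Setd5+/- and 3.82% in wild type, and in wild type only over Gria1 (4.27%) and Syt1 (4.36%). The member mean was 0.75% in Setd5+/- and 2.35% in wild type, against 2.75% and 1.08% over all genes. Without chromosomes 1, 4, 15, X and Y, the member mean was 0.844% in Setd5+/- and 2.64% in wild type, against 0.586% and 1.075% over all genes. In Setd5+/- the member mean then lay above that of all genes and not below it. Only 2 members, Nlgn1 and Grin2b, had any H3K36me2 in Setd5+/-. With all chromosomes kept, among genes of at least 50 kb, the member mean was 0.921% in Setd5+/-, against 5.26% over all genes. In wild type it was 2.88%, against 2.5%.

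H3K27me3 spread over little of any member. The mean was 1.43% in Setd5+/- and 1.78% in wild type, against 2.06% and 2.92% over all genes, and no member reached 25% in either genotype. Any H3K27me3 lay over 11 of the 27 spans (40.7%) in each genotype, against 12.6% of all genes in Setd5+/- and 14.3% in wild type. Among genes of at least 50 kb, the member mean was 1.59% in Setd5+/- and 1.58% in wild type, against 1.84% and 2.68% over all genes. Without chromosomes 1, 4, 15, X and Y, it was 1.61% in Setd5+/- and 1.63% in wild type, against 1.72% and 2.23%. The highest coverage was at Shank1, with 12.9% in Setd5+/- and 19.1% in wild type. Scn1a had 11.3% in Setd5+/- and 3.9% in wild type, and Scn2a had 4.23% in 5 islands of 22 to 33 reads in Setd5+/- and no island in wild type. Grin1 had 3.66% in Setd5+/- and 4.37% in wild type. In each genotype the island lay across its lower end, over the genes Lrrc26 and Grin1os, so the mark cannot be assigned to Grin1 alone. A difference of at least 10 percentage points was met by no member, against 4.41% of all genes lower and 1.64% higher in Setd5+/-.

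Nlgn3 had no H3K27me3 over its span in Setd5+/- and 9.02% in wild type. It lies on the X chromosome, where H3K27me3 covered 6.71 Mb in Setd5+/- and 22.2 Mb in wild type. Camk2a likewise had none in Setd5+/- and 3.5% in wild type. Nrxn3 had 1.04% in Setd5+/- and 0.992% in wild type, but in 10 islands against 4. Syt1 had 0.468% in Setd5+/- and 1.32% in wild type, and Pclo 0.803% in Setd5+/- and none in wild type. No H3K27me3 lay over the spans of Gria2, Grin2a, Shank3, Dlg4, Homer1, Nrxn2, Nlgn1, Nlgn2, Syn1, Snap25, Stx1a or Bsn.

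Over the spans with 5 kb flanks, the members held 51 H3K4me1 islands with 1827 reads in Setd5+/- and 99 islands with 5332 reads in wild type, from lists of 24243 and 35464 islands. H3K27ac islands numbered 29 in Setd5+/- and 44 in wild type, from lists of 17425 and 18633. H3K4me3 islands numbered 62 in Setd5+/- and 69 in wild type, from lists of 23299 and 22767. H3K27me3 islands numbered 42 in Setd5+/- and 30 in wild type, although their lists as a whole held 18764 and 19791. Nlgn1 was the richest in H3K4me1, with 12 islands in Setd5+/- and 21 in wild type, and in H3K27ac, with 7 and 11. Nrxn2 had 4 and 6 H3K27ac islands, summing to 232 reads in Setd5+/- and 447 in wild type. Gria1 had 1 H3K4me1 island in Setd5+/- and 7 in wild type, and Nrxn3 had 2 and 10.

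In a second list, of 58 other synapse genes, H3K4me3 lay at 42 promoters in Setd5+/- and 46 in wild type, H3K27ac at 12 in each, and H3K27me3 at 15 in Setd5+/- and 18 in wild type. Promoter H3K27me3 was called in Setd5+/- only at Grik1 and Syt4 (all genes, 1.55%), and in wild type only at Gria3, Slc17a7, Cacna1b, Kcnq3 and Lrrtm1 (all genes, 3.31%). Of the 57 with a span of at least 5 kb, H3K27me3 coverage was higher in Setd5+/- by at least 25 percentage points at 1, against 0.534% of all genes, and lower by as much at 2, against 1.81%. Lrrtm1, an adhesion gene of excitatory synapses, had no H3K27me3 over its span in Setd5+/- and 48.2% in wild type. Gria3, on the X chromosome, had 9.43% in Setd5+/- and 36.1% in wild type, and the vesicle protein gene Syt4 had 37.5% in Setd5+/- and none in wild type.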

How the data were processed

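The analysis covers 13 island lists from 16 samples, 1 library per group. The inputs, 3 samples, are not used here. FastQC, Bowtie2 2.2.3, SICER 1.1 and the build GRCm38 (mm10) are named in the submitters' processing notes. For H3K36me2, H3K36me3 and SETD5-V5, 5 lists in all, SICER ran at 800 bp windows, 2400 bp gaps and an FDR of 0.01, per the file headers, while 8 lists give no settings. The whole numbers the authors deposited for each island behave as read counts and were taken as such, because their column has no name. No normalisation is recorded. Island widths in every list are multiples of 200 bp, and wide-window lists cannot show short islands. Libraries were read to 50 bp as single reads after 14 PCR cycles, per the labels' protocols.

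The 27 members, their classes, the 58 other synapse genes, the marker lists and the rule for named genes were chosen with earlier results of these data known. Starts and sequences came from RefSeq tables of GRCm38. Spans were taken from the RefSeq gene table, and all genes of at least 5 kb (16853) served as the background for spans. All members were named, with most detail for those with a promoter mark in 1 genotype only, a span difference of 10 percentage points or the highest span coverage of their class. For the other synapse genes the rule was promoter H3K27me3 in 1 genotype only or an H3K36me3 or H3K27me3 span difference of 25 percentage points. A result that this rule gives is not reported here. H3K4me3 and H3K27me3 of a bivalent gene may lie at different windows. Scripts ran on Python 3.11.15 (matplotlib 3.10.9, scipy 1.17.1, pandas 2.3.3, numpy 2.4.6). Coverage and calls were tested on simulated islands. Intervals of counts are exact Poisson intervals at 95%. Alternatives were a window of 2.5 kb, either gene end, an overlap of 200 bp, islands without the lowest 25.0% by density, equal covered length, cover of 50%, genes of at least 50 kb, spans without flanks, and leaving out chromosomes 1, 4, 15, X and Y.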

Additional observations from a re-analysis of the deposited data

How the results depend on the processing

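Of 116 recomputed counts and means, 104 stayed within 1.5 times their value. Under the stricter islands, Setd5+/- promoters with H3K4me1 numbered 3, against 13.1% of all genes. Mean H3K36me3 coverage then was 3.19% in Setd5+/- and 2.11% in wild type, against 22.7% and 22.3% over all genes. In each genotype 1 member was covered, against 31.0% of all genes in Setd5+/- and 29.5% in wild type. Mean H3K36me2 coverage in wild type was 0.968%, against 0.739% over all genes, with 0 members and 0.771% of all genes covered. Mean H3K27me3 coverage in Setd5+/- was 0.94%, against 1.76% over all genes. With equal covered length, which for H3K36me2 removed islands from the Setd5+/- list only, mean coverage in Setd5+/- was 0.0618%, against 1.63% over all genes. At 50% of the span, 0 members were covered by H3K36me3 in Setd5+/-, against 28.8% of all genes. The count was also 0 for H3K36me2 in wild type, against 0.309%, and 0 for SETD5-V5, against 15.4%. The cause was not tested. Of 62 recomputed differences of single members, 52 stayed within 1.5 times and 1 changed direction, H3K27me3 at Dlgap1 with either gene end (−60 bp). The Nlgn1 H3K36me2 difference was −10.3 points under stricter islands and −34.3 with equal length, and the Homer1 difference was 0 under stricter islands. Fewer H3K4me3 reads in Setd5+/- were found at 11 members under stricter islands, against 34.3% of all genes marked in both genotypes. Under that setting 18 members kept promoter H3K4me3 in Setd5+/-. With the wider window the count was 16, against 34.4%, and relative to reads in islands it was 21, against 61.0%. These settings were chosen after seeing the data. No paired analysis was possible because each group has 1 library and the labels carry no replicate numbers. Single libraries, islands called separately and unknown depth outside islands limit every difference.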
